A study of Mus musculus with 4 samples.

Results

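The serpins, the family of serine protease inhibitors, were followed by RNA-seq in the epididymal adipose tissue of obese male C57BL/6J wild-type mice with different diet histories. Members were the genes whose symbol is Serpin followed by a clade letter from a to i and a number (Serping1 included), with symbols marked as pseudogenes by "-ps" left out. The rule found 62 of the 24421 genes measured. The family was looked at because Serpinb9b was among the largest falls in these libraries, so the values of Serpinb9b are given as a description without a test and it is left out of every count of called genes. Mice of the weight-cycling group (WC1) began a high-fat diet (HFD) at 8 weeks of age, received it for 8 weeks, were switched to a standard diet (SD) for 2 weeks to lose weight, and returned to HFD for a final 6 weeks. Mice of the high-fat control group (Ctrl) began HFD at 10 weeks of age and received it without a break for 14 weeks. There were 2 libraries per group, called Ctrl 1, Ctrl 2, WC1 1 and WC1 2, and the labels do not say whether each came from a separate mouse or from a pool, so p-values measure only the spread between these libraries. The question was how the members of this family, clade by clade, differed in fat between mice that had been through a weight-loss phase and mice that had stayed on HFD.

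Serpins stop proteases by a suicide mechanism. An exposed reactive centre loop is offered as bait, the protease cuts it, and the loop then folds into the body of the serpin and drags the protease with it, leaving both inactive. Clade A serpins and those of clades C to I are mostly secreted and control clotting, fibrinolysis, complement and inflammation, whereas clade B serpins mostly stay inside cells and protect them from their own or leaked granule proteases. A few members inhibit nothing: Serpinh1 is a collagen chaperone, and Serpina6 and Serpina7 carry hormones. In obese fat, serpins are made by adipocytes, stromal cells, endothelial cells and immune cells, so a bulk library mixes many sources.

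Reads per library ranged from 61465029 to 90965297, and 3 reads, which a count of 0 cannot exclude by counting error alone, corresponded to between 0.0345 and 0.0492 CPM (read counts scaled to the library size). Levels are given in CPM, except where genes are compared with each other, which is done in TPM, a unit also corrected for transcript length. A gene was tested if it had at least 0.5 CPM in at least 2 libraries, on the scale of log2(CPM + 1), where differences of low genes are understated. Log2 fold changes are WC1 minus Ctrl and are given ± SE, and a gene was called at a limma adjusted p under 0.05. The labelled tissue was checked against fixed marker genes: adipocyte markers such as Adipoq, Plin1 and Fabp4 were abundant in every library (summed 11082 to 25816 CPM), and 8 of 10 epididymis markers were at 0 in all 4, with Adam7 at 3.02 CPM in WC1 1 the highest of the other two.

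The loop is what sets the target of a serpin, and its coding sequence is printed for the members on which the results turn. Pairs of these members lie in the same gene cluster, share most of their coding sequence and differ in the loop. Each run is 25 codons of the sense strand, 5′ to 3′, from the GENCODE M21 transcripts on GRCm38. Lower case marks 9 codons ending with the hinge, which is conserved in inhibitory serpins, and capitals mark the 16 codons that follow, which hold the bond that the target protease cuts. All 9 stretches lie in the last exon of their gene. Those of clade B are on chromosome 13, those of clade A on chromosome 12 and that of Serping1 on chromosome 2.
Serpinb9b (chr13:33039796-33039870, plus strand): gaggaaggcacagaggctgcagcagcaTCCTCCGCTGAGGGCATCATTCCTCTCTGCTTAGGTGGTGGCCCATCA
Serpinb9 (chr13:33015693-33015767, plus strand): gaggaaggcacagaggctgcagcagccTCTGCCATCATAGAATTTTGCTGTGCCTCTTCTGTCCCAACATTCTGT
Serpinb6a (chr13:33918125-33918199, minus strand): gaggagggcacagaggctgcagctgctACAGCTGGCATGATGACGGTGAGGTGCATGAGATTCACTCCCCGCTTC
Serpinb6b (chr13:32978201-32978275, plus strand): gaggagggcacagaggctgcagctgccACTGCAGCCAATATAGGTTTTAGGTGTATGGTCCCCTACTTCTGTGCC
Serpinb1a (chr13:32842902-32842976, minus strand): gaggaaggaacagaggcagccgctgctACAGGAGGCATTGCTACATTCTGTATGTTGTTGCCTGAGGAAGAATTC
Serpinb1b (chr13:33093767-33093841, plus strand): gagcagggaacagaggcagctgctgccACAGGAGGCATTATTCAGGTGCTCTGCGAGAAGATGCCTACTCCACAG
Serpina3n (chr12:104413442-104413516, plus strand): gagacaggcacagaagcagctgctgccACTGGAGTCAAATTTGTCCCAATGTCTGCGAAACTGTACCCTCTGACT
Serpina3c (chr12:104147319-104147393, minus strand): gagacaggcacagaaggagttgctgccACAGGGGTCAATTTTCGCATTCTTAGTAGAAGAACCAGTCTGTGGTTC
Serping1 (chr2:84765652-84765726, minus strand): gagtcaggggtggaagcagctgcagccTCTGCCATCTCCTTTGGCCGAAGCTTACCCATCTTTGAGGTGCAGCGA
Serpinb9b and Serpinb9 had 85.32% of aligned coding bases in common and 26 of 27 bases of the lower-case stretch, but only 12 of the 48 bases in capitals. The same contrast was seen for Serpinb6a and Serpinb6b (81% of coding bases, 26 of 27 and 22 of 48), for Serpinb1a and Serpinb1b (89.7%, 23 of 27 and 17 of 48), and for Serpina3n and Serpina3c (84.84%, 25 of 27 and 19 of 48). It was weaker for Serpina3n and Serpina3m (85.17%, 27 of 27 and 26 of 48) and for Serpina3c and Serpina3m (88.41%, 25 of 27 and 27 of 48), and was not seen for Serpina1a and Serpina1b, which had 91.9% of coding bases, 26 of 27 and 43 of 48 in common. Serpina3n and Serpinb9b, from different clades, had 43.43% of coding bases in common, with 20 of 27 and 8 of 48. A hinge could be found by its coded pattern in 48 of the 62 members. Such likeness did not extend to whole reads for these genes: a stretch of 100 bases shared with another gene was absent from the transcripts of Serpinb9b, Serpinb9, Serpinb6a, Serpinb6b, Serpinb1a, Serpinb1b and Serpina3c, and made up 0.204% of those of Serpina3n.

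The promoters of Serpina3n and Serpina3c are shown because both genes were higher in WC1 and their promoters are close copies. Each window runs from 250 bases before to 50 bases after the start of the gene in RefSeq (GRCm38.p6), on the strand of the gene, and capitals mark the bases at which the pair differs when aligned.
Serpina3n (chr12:104406458-104406757, plus strand): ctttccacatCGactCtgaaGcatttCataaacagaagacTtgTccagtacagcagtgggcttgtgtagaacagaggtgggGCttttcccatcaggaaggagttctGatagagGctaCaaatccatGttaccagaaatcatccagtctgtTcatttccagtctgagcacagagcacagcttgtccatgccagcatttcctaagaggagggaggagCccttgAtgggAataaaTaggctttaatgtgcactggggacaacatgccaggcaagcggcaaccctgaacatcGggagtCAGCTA
Serpina3c (chr12:104153823-104154122, minus strand): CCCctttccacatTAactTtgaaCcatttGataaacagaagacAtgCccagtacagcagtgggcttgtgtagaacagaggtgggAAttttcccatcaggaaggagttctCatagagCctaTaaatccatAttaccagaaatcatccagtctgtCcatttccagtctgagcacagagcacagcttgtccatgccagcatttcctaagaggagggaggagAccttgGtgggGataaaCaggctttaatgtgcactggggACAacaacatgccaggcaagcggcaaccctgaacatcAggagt
These windows matched at 89.87% of aligned positions. The window of Serpina3n matched those of Serpina3b, Serpina3f and Serpina3i at 67.74%, 60.63% and 60.49% of positions. For Serpina3j, Serpina3a and Serpina3g the match was 43.44%, 40.8% and 34.62%. Serpina3h, Serpina3k and Serpina3m had no window. An NF-kB-type motif (GGG, any 2 bases and TTTCC, either strand) was found in the window of Serpina3n, overlapping capitals, and not in that of Serpina3c. It was present in 3 of the 52 serpin genes with a window and in 1.63% of all 32851 windows. A STAT-type motif (TTCNNNGAA, either strand) was in 8 of the 52 genes and 8.3% of windows, a C/EBP-type motif (TTGCNNAA, either strand) in 14 of the 52 and 10.8%, and neither was in the windows of Serpina3n or Serpina3c. A serpin gene counted if any of its windows held the motif, and some serpin genes have several windows. The counts of genes and the shares of windows are therefore in unlike units. The promoter windows of Serpinb9b and Serpinb9 matched at 56.52% of positions.

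The summed level of serpin mRNA overlapped between the diets in TPM. Summed over all 62 members, serpins amounted to 3557 and 3614 TPM in Ctrl and 3307 and 3574 TPM in WC1, which overlapped. In CPM the Ctrl sums were 3342 and 3390 and the WC1 sums 2913 and 3098, which did not overlap. Without Serpinb9b the CPM sums overlapped, at 3016 and 3109 for the Ctrl libraries and 2888 and 3088 for those of WC1. In Ctrl 1 the most abundant member was Serpinb6a (951 TPM), followed by Serping1 (779), Serpinf1 (510), Serpinb9b (323), Serpinh1 (311) and Serpina3n (248). In WC1 2 the order was Serpinf1 (692 TPM), Serping1 (687), Serpina3n (633), Serpinh1 (564), Serpinb6a (483) and Serpina3c (207). The neighbours Serpinf1 and Serping1 did not differ beyond their spread in WC1 (680 ± 17 and 652 ± 48.4 TPM, SD, n = 2). Clade B made up 42.4% and 38.2% of the family's TPM in Ctrl and 24.7% and 17.4% in WC1, and clade A made up 8.89% and 9.44% in Ctrl and 17.5% and 24.5% in WC1. Clades C to I together held the remaining 48.7% and 52.3% in Ctrl and 57.8% and 58.1% in WC1. Serpinb9b chose the family, so its own part in the lower clade B share is fixed by that choice. Without it, clade B made up 36.6% and 33% of the TPM of the other 61 members in Ctrl and 24% and 17.1% in WC1, and clade A 9.78% and 10.2% in Ctrl and 17.6% and 24.6% in WC1. These shares are descriptions and were not tested.

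**Figure D1:**
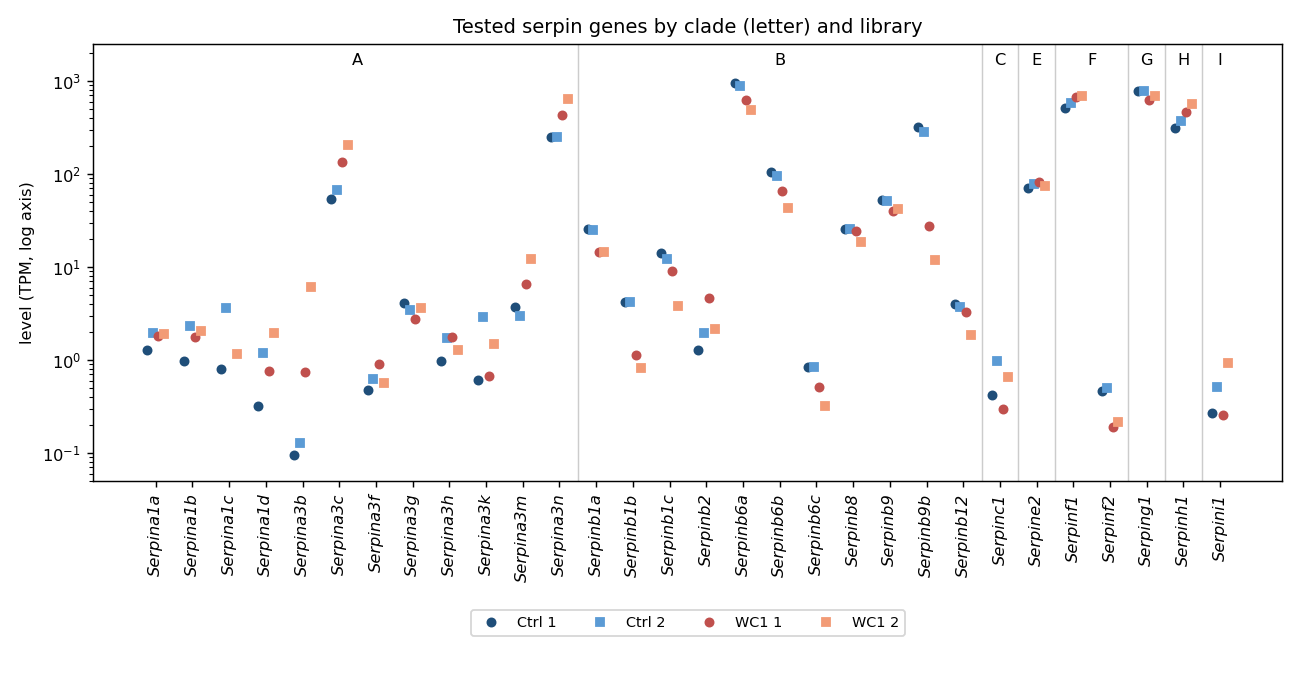
TPM (log axis) of 30 tested serpin genes, grouped by clade letter, with each library as a point (Ctrl blue, WC1 red; no error bars, since every library is shown). Serpinb9b drops from 323 and 281 to 27.4 and 12 TPM, the other abundant clade B genes sit lower in WC1, and Serpina3n and Serpina3c sit higher; Serpina1c is listed at 0 in WC1 1 and has no point there.

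Of the 62 members, 45 had a read in at least 1 library and 31 passed the filter. Among the 30 tested members other than Serpinb9b, 2 were called higher and 6 lower in WC1. Over all 14106 genes tested, 10.2% were called higher and 7.71% lower, together 17.9%. Clade A had 2 of 12 tested members called, both higher, with a median log2 fold change of 0.11. Clade B had 5 of 10 called, all lower, with a median of -0.71. Clades C to I had 1 of 8 called, which was lower, with a median of -0.12. The median over all tested genes was -0.02. No test of the difference between clades was made. The groups did not overlap in 9 of 10 clade B members, all lower in WC1, and in 5 of 12 clade A members, 4 of them higher. Serpinb6c (among the 9) passed the filter through Ctrl alone and Serpina3b (among the 4) through WC1 alone. Their direction follows from the filter. Of all tested genes 69.3% had groups that did not overlap, 36.6% lower and 32.7% higher in WC1. With Ctrl 1 left out limma called 0 of the 30 (3 higher and 7 lower at an unadjusted p under 0.05) and with Ctrl 2 left out again 0 (3 and 5 unadjusted). In these fits the lone Ctrl library is assumed to vary like the WC1 pair, which alone gives the spread, and over all genes only 2 were called higher and 4 lower, and 6 and 6. Fold changes were then -0.86 and -0.91 for Serpinb1a, -0.47 and -0.50 for Serpinb9 and 0.91 in both fits for Serpina3n, genes with close Ctrl libraries. Over the fits that leave out each library in turn, Serpina3n ranged from 0.65 to 1.17 and Serpina3c from 1.02 to 1.60. Serpinb6a ranged from -1.08 to -0.67, Serpinb6b from -1.34 to -0.73, Serpinb1b from -1.53 to -1.29 and Serping1 from -0.46 to -0.35. Why the calls were lost was not tested. With all libraries, edgeR on the reads recovered from CPM called 2 higher and 6 lower and DESeq2 called 5 and 7 of the 30. Over all 14106 genes edgeR called 1476 higher and 1007 lower, and DESeq2 2125 and 1736.

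**Figure D2:**
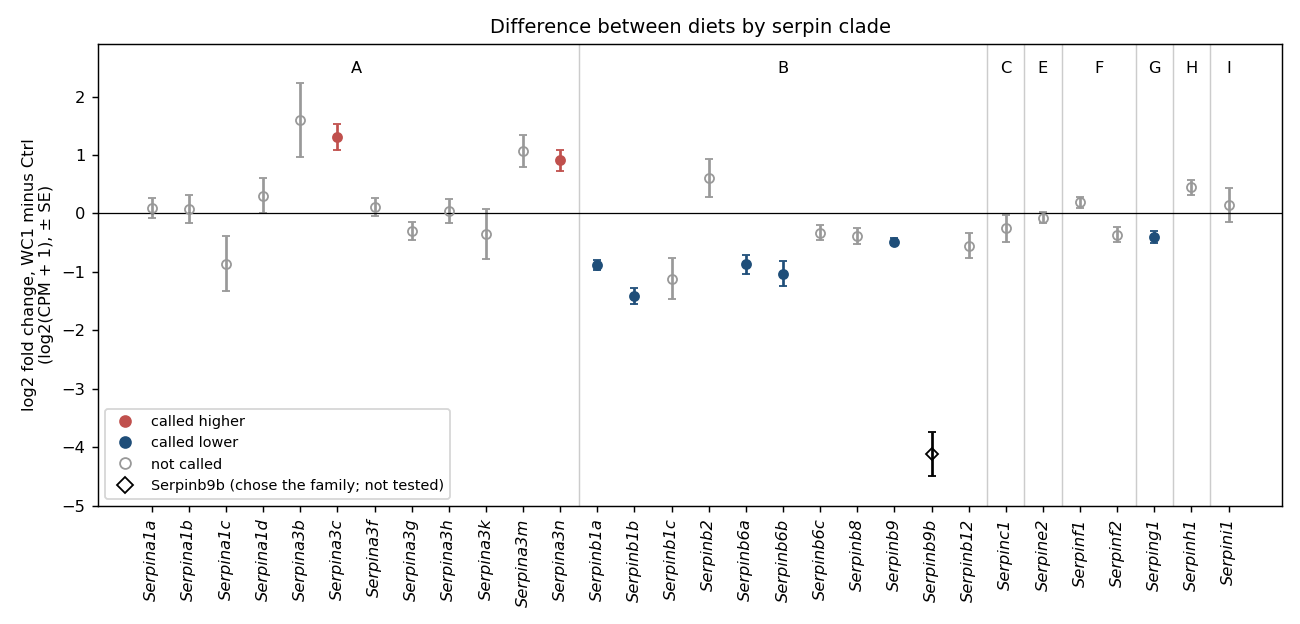
Log2 fold change, WC1 minus Ctrl, on the log2(CPM + 1) scale for 30 tested serpins by clade letter, with bars of ± SE from limma (n = 2 per group). Filled red points were called higher (Serpina3c 1.31, Serpina3n 0.91), filled blue points lower, open grey points were not called, and the open diamond is Serpinb9b at -4.11, shown without a test.

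Serpinb9b, an intracellular serpin of the Serpinb9 group, stood at 326 and 281 CPM in the Ctrl libraries and at 25.3 and 10.8 CPM in those of WC1. The groups were far apart, with the Ctrl mean 16.8 times the WC1 mean, and the log2 fold change was -4.11. It ranged from -4.69 without WC1 1 to -3.53 without WC1 2. Its share of all serpin TPM went from 9.09% and 7.79% to 0.827% and 0.336%, and it was at rank 4 and 5 of the family in the Ctrl libraries and below rank 8 in both WC1 libraries. In a bulk library fewer cells that make an mRNA cannot be told apart from less of it per cell. On GRCm38 Serpinb9b is at chr13:33027416-33041884 on the plus strand, where the predicted gene Gm36099 overlaps it on the other strand, and the sources used here do not say whether reads were counted by strand.

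Serpinb9, the inhibitor of granzyme B, lies beside Serpinb9b and fell too. It was at 92.3 and 90.5 CPM in Ctrl and 64.4 and 65.7 CPM in WC1, with close replicates and no overlap (log2 fold change -0.48 ± 0.06, limma adjusted p = 0.018). Its target granzyme B (Gzmb), named here for that reason, was scarce and fell from 1.89 and 2.63 CPM to 0.279 and 0.524 CPM (-1.21 ± 0.18, adjusted p = 0.021, and between -2.47 and -0.82 over the alternatives run). Of the other five Serpinb9 genes, Serpinb9c, Serpinb9e and Serpinb9g had at most 0.103 CPM, and Serpinb9d and Serpinb9f were at 0 in every library.

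The Serpinb6 genes, whose human counterpart inhibits cathepsin G and trypsin-like proteases, included the most abundant serpin of Ctrl fat. Serpinb6a fell from 722 and 664 CPM to 436 and 326 CPM (-0.87 ± 0.16, limma adjusted p = 0.03). Serpinb6b fell from 102 and 91.1 CPM to 57.9 and 37.4 CPM (-1.03 ± 0.21, adjusted p = 0.036). In both genes WC1 2 was the lowest library and the groups did not overlap. Serpinb6c was at 0.585 and 0.586 CPM in Ctrl and 0.328 and 0.207 CPM in WC1, and it passed the filter through Ctrl alone (-0.33 ± 0.13, adjusted p = 0.15). Serpinb6a overlaps Nqo2, Ripk1 and 1110046J04Rik on the other strand, and these 3 were not called (-0.25, -0.16 and -0.50, adjusted p = 0.12, 0.27 and 0.15). Serpinb6d and Serpinb6e were at 0.

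The Serpinb1 genes, of which Serpinb1a is the mouse form of an inhibitor of neutrophil elastase, proteinase 3 and cathepsin G, were lower in WC1 without overlap. Serpinb1a fell from 25.5 and 24.8 CPM to 13.3 and 13 CPM (-0.88 ± 0.08, limma adjusted p = 0.012), the smallest adjusted p among the 30 serpins tested. Serpinb1b fell from 3.83 and 3.71 CPM to 0.951 and 0.651 CPM (-1.41 ± 0.14, adjusted p = 0.013). On this low gene the size depends on the scale, and over the alternatives run the log2 fold change lay between -2.22 and -1.05. Serpinb1c was at 12 and 10.2 CPM in Ctrl and 6.96 and 2.86 CPM in WC1, again without overlap, but its WC1 libraries were far apart and it was not called (-1.12 ± 0.35, adjusted p = 0.086). The fold change of Serpinb1c ranged from -0.60 when WC1 2 was left out to -1.64 when WC1 1 was, and 4 of 14 alternatives called it, among them both of these fits and DESeq2 (adjusted p = 0.012). The neutrophil proteases that Serpinb1a inhibits were scarce: cathepsin G (Ctsg) was at 0.556 and 2.05 CPM in Ctrl and 0.361 and 0.0635 CPM in WC1, passing the filter through Ctrl alone (limma adjusted p = 0.15, DESeq2 adjusted p = 0.022), and neutrophil elastase (Elane) had at most 0.238 CPM.

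The remaining tested clade B members lie in another cluster, on chromosome 1, and none of them was called. Serpinb8, an inhibitor of furin, was at 38.7 and 38.9 CPM in Ctrl and 34 and 25.7 CPM in WC1 (-0.38 ± 0.14, limma adjusted p = 0.12). Serpinb12 was at 3.57 and 3.23 CPM and at 2.64 and 1.48 CPM (-0.55 ± 0.21, adjusted p = 0.13). Both were lower in WC1 without overlap, and both were called when WC1 1 was left out (-0.58 and -0.83, adjusted p = 0.004 and 0.0094). Serpinb2, the plasminogen activator inhibitor of macrophages and stressed epithelia, was at 1.35 and 1.99 CPM in Ctrl libraries and 4.44 and 1.99 CPM in those of WC1, with the high value in a single library (0.61 ± 0.32, adjusted p = 0.23). When WC1 2 was left out it was called (1.04, adjusted p = 0.019), on that high library. It overlaps Serpinb10, with which it shares 7.525% of its stretches of 100 bases, so the assignment of some reads is uncertain.

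The members were then set out by position. The chromosome 13 cluster holds 15 annotated Serpinb genes within 1.16 Mb (chr13:32842092-34002794, GRCm38). All 7 tested members other than Serpinb9b were lower in both WC1 libraries than in both Ctrl libraries, 5 of them were called, and their median log2 fold change was -0.88. The 7 include Serpinb6c, which passed the filter through Ctrl alone, so its lower position follows from the filter. Over all tested genes 36.6% were lower without overlap and 7.71% were called lower. In the same span and 250 kb to each side, 9 genes of other families were tested. Of these 9, 1 was called, which was higher (Slc22a23, 0.75, limma adjusted p = 0.039), and 7 of the 9 were lower without overlap, with a median of -0.25. The Serpinb cluster of chromosome 1 (chr1:106861173-107610484, 12 annotated members) had 3 tested members with a median of -0.38. In the Serpina cluster of chromosome 12 (chr12:103614786-104414329, 23 members) 12 members were tested, with a median of 0.11, and of 6 tested flanking genes of other families 3 were called higher (Ifi27l2a 1.02, Ppp4r4 0.72 and Ifi27 0.32, adjusted p = 0.018, 0.039 and 0.047), beside 10.2% of all tested genes.

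**Figure D3:**
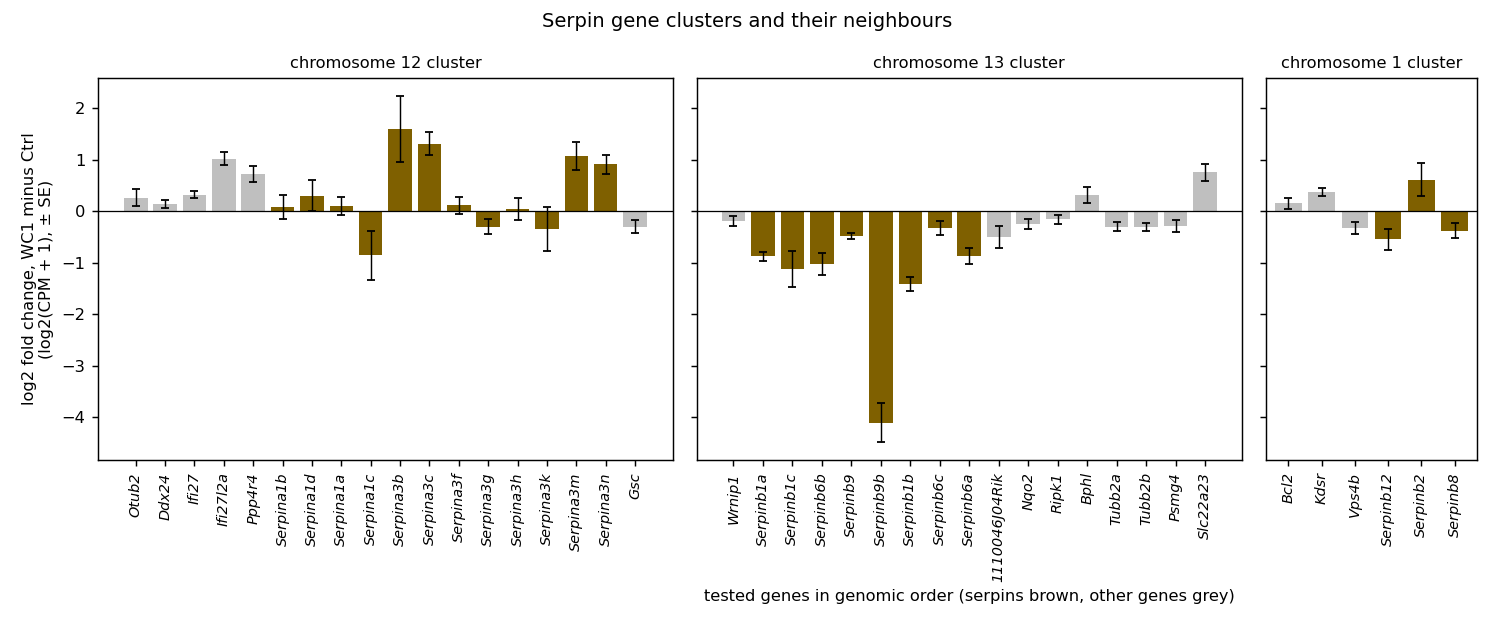
Log2 fold change, WC1 minus Ctrl (log2(CPM + 1), bars of ± SE, n = 2 per group), of all tested genes in the 3 serpin clusters and 250 kb to each side, in genomic order with serpins in brown and other genes in grey. Every brown bar of the chromosome 13 cluster points down, from -0.33 for Serpinb6c to -4.11 for Serpinb9b, whereas brown bars of the chromosome 12 cluster run from -0.86 to 1.60. The direction of Serpinb9b is given by the choice of the family. The direction follows from the filter for Serpinb6c, passed through Ctrl alone, and for Serpina3b (1.60), passed through WC1 alone.

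In clade A, both called members belong to the Serpina3 group, mouse relatives of alpha-1-antichymotrypsin. Of its 8 tested members 2 were called, both higher, and 6 were not, beside 10.2% of all tested genes called higher. These 2 calls are not read as a result about the group. Serpina3n, a secreted acute-phase inhibitor of granule proteases such as granzyme B and cathepsin G, rose from 271 and 271 CPM in Ctrl to 426 and 613 CPM in WC1. The Ctrl libraries were nearly identical and the WC1 libraries differed from each other but lay well above them (0.91 ± 0.18, limma adjusted p = 0.035). Serpina3c rose from 47.6 and 59.4 CPM to 109 and 163 CPM (1.31 ± 0.22, adjusted p = 0.025), also with WC1 2 the highest. Together the 11 Serpina3 genes went from 312 and 331 TPM to 574 and 867 TPM.

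Further Serpina3 genes were scarce and varied in direction. Serpina3m was at 3.23 and 2.55 CPM in Ctrl and 5.28 and 9.5 CPM in WC1 (1.07 ± 0.27, limma adjusted p = 0.055), just outside the threshold. It was called in 4 of 14 alternatives, with fold changes from 0.70 without WC1 2 to 1.44 without WC1 1. It overlaps Serpina3k, with which it shares 6.09% of its stretches of 100 bases. Serpina3b was near the floor in Ctrl, at 0.117 and 0.149 CPM, and reached 0.737 CPM in WC1 1 and 5.83 CPM in WC1 2, so that it passed the filter through WC1 alone and its level rests mainly on a single library (1.60 ± 0.64, adjusted p = 0.14). The size of its fold change depends on the scale and on WC1 2, from 0.62 without that library to 4.65 in DESeq2, which called it (adjusted p = 1.9e-06), while edgeR did not (4.62, adjusted p = 0.055). Serpina3g, which has been described as an inhibitor of cysteine proteases in T cells, was at 4.37 and 3.57 CPM and at 2.69 and 3.4 CPM (-0.30 ± 0.15, adjusted p = 0.22). The groups of Serpina3f (0.57 and 0.735 CPM in Ctrl, 0.983 and 0.604 CPM in WC1) and of Serpina3h, a transcribed pseudogene in GENCODE (1.07 and 1.84 CPM, 1.75 and 1.24 CPM), overlapped, with log2 fold changes of 0.11 and 0.04 (adjusted p = 0.65 and 0.92).

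The plasma serpins best known from the liver were present in traces, and the groups overlapped in Serpina1a to Serpina1d, Serpina3k and Serpinc1. Serpina1a to Serpina1e encode alpha-1-antitrypsin, the inhibitor of neutrophil elastase, and summed to 2.98 and 7.73 CPM in Ctrl and 3.51 and 5.42 CPM in WC1. Serpina1a was at 1.16 and 1.76 CPM in Ctrl and 1.52 and 1.72 CPM in WC1 (0.10 ± 0.17, limma adjusted p = 0.68), and Serpina1b at 0.731 and 1.71 CPM and 1.23 and 1.37 CPM (0.08 ± 0.24, adjusted p = 0.82). Serpina1c was at 0.6 and 2.64 CPM in Ctrl, listed at 0 in WC1 1 and at 0.763 CPM in WC1 2 (-0.86 ± 0.47, adjusted p = 0.25, and 0.03 with the replicate block), and Serpina1d was at 0.249 and 0.896 CPM and 0.541 and 1.33 CPM (0.30 ± 0.30, adjusted p = 0.5). These copies are so alike that the split among them is uncertain, since Serpina1c shares 58.479% and Serpina1a 42.841% of its stretches of 100 bases with another gene. Serpina3k was at 0.526 and 2.51 CPM in Ctrl and 0.541 and 1.14 CPM in WC1 (-0.35 ± 0.43, adjusted p = 0.58). Antithrombin (Serpinc1), the main inhibitor of thrombin, was at 0.483 and 1.09 CPM in Ctrl and 0.311 and 0.667 CPM in WC1 (-0.25 ± 0.23, adjusted p = 0.46).

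Ctrl 2 was the highest library for Serpina1a, Serpina1b, Serpina1c, Serpina3k and Serpinc1, and the same library was the highest for albumin (Alb), at 16.2 CPM compared to 4.36 CPM in Ctrl 1 and to 2.82 and 8.13 CPM in WC1. Of the 8 hepatocyte markers, Ctrl 2 was the highest library for 5, Ctrl 1 for Ahsg (7.78 compared to 7.62 CPM) and Cps1 (0.19 compared to 0.138 CPM), and WC1 2 for Tat (0.556 compared to 0.54 CPM). Hepatocyte markers summed to 14.6 and 29.9 CPM in Ctrl and 4.62 and 12.8 CPM in WC1, all 8 markers had reads, and 1 of the 5 tested, Ahsg, was called lower (-1.96, limma adjusted p = 0.016). The part of these transcripts in the values of the plasma serpins was not tested.

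**Figure D4:**
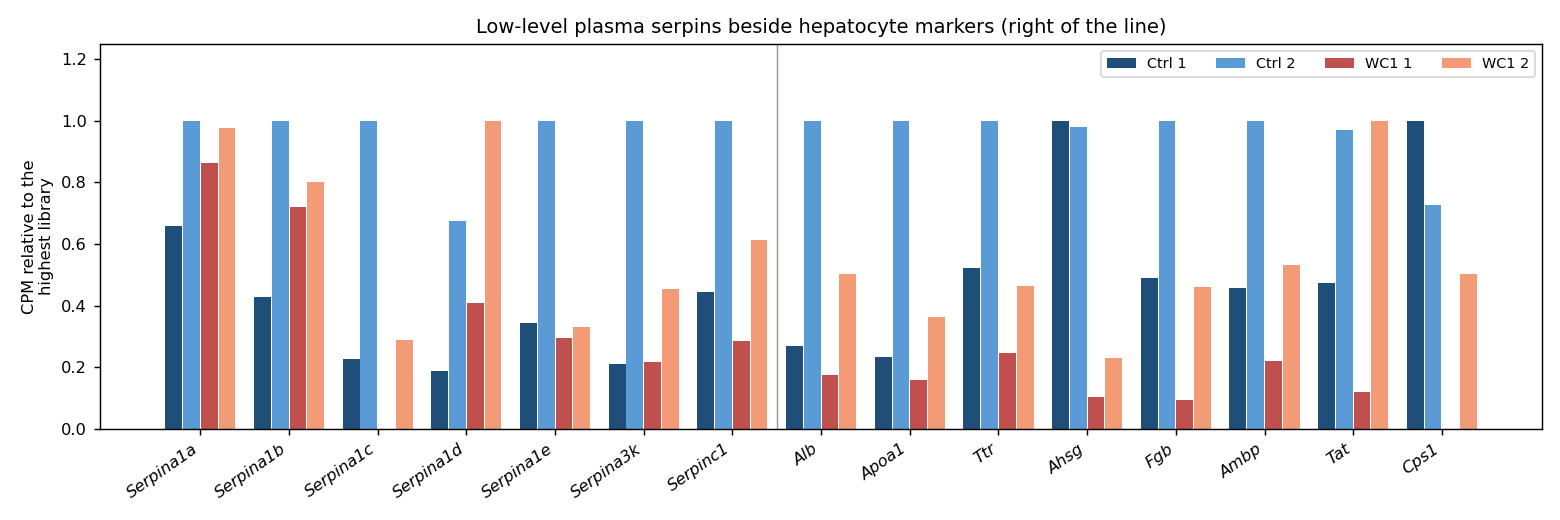
CPM of the low-level plasma serpins (left of the line) and of all 8 hepatocyte markers (right), each divided by its highest library so that bars run from 0 to 1, with 1 bar per library. Ctrl 2 is the tallest bar for all serpins shown except Serpina1d, where WC1 2 is (1.33 compared to 0.896 CPM), and for the markers Alb, Apoa1, Ttr, Fgb and Ambp but not Ahsg, Tat and Cps1.

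Outside clades A and B, 1 of the abundant members was called. Serping1, the C1 inhibitor that blocks the complement proteases C1r and C1s and the contact system, fell from 741 and 741 CPM in Ctrl to 540 and 581 CPM in WC1 (-0.40 ± 0.10, limma adjusted p = 0.048). This call was at the threshold: it was lost in 6 of 14 alternatives, among them the TPM matrix (779 and 786 to 618 and 687 TPM), while the fold change stayed between -0.46 and -0.26. Serpinh1, the collagen chaperone, was at 367 and 433 CPM in Ctrl and 500 and 590 CPM in WC1, higher without overlap, but was not called (0.45 ± 0.13, adjusted p = 0.079). DESeq2 called it (0.47, adjusted p = 0.01), as did 2 other of the 14 alternatives. Serpinf1, which encodes the adipocyte-secreted factor PEDF, was at 399 and 445 CPM and at 479 and 481 CPM (0.19 ± 0.09, adjusted p = 0.21).

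Serpine2, protease nexin-1, which inhibits thrombin and plasminogen activators, was at 75.8 and 83.7 CPM in Ctrl and 81.5 and 70.5 CPM in WC1 (-0.07 ± 0.10, limma adjusted p = 0.65), and its sign turned in the TPM matrix. The groups overlapped, and a difference was not detectable within the spread of 2 libraries per group. Serpinf2, the inhibitor of plasmin, was at 0.541 and 0.575 CPM in Ctrl and 0.213 and 0.222 CPM in WC1, and passed the filter through Ctrl alone (-0.36 ± 0.13, adjusted p = 0.11). With no filter it was called (adjusted p = 0.042), and its fold change was -1.33 in edgeR and -1.34 in DESeq2, neither of which called it (adjusted p = 0.052 and 0.11). Serpini1, neuroserpin, was at 0.453 and 0.839 CPM and at 0.393 and 1.35 CPM (0.15 ± 0.29, adjusted p = 0.74).

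Another 14 members had reads but stayed under the filter, none above 0.731 CPM. In clade A these were Serpina1e, Serpina3a, Serpina3i, Serpina5, Serpina6, Serpina7, Serpina11 and Serpina12, the last of which encodes the adipokine vaspin and had 0.0877 and 0.195 CPM in Ctrl and 0.147 and 0.381 CPM in WC1. In clade B they were Serpinb5, Serpinb9c, Serpinb9e, Serpinb9g and Serpinb10, and in clade D Serpind1, heparin cofactor II (0.146 and 0.138 CPM, 0.229 and 0.572 CPM). The other 17 had no read in any library: Serpina1f, Serpina3j, Serpina9, Serpina10, Serpinb3a, Serpinb3b, Serpinb3c, Serpinb3d, Serpinb6d, Serpinb6e, Serpinb7, Serpinb9d, Serpinb9f, Serpinb11, Serpinb13, Serpine3 and Serpini2. Most of these are known from squamous epithelium, reproductive tissue or liver.

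The proteases, cofactors and clients on which serpins act were then examined in 9 fixed lists of 97 genes, of which 70 were tested. Of the 70, 2 were called higher and 19 lower, with a median log2 fold change of -0.32, beside 10.2% higher and 7.71% lower and a median of -0.02 over all tested genes. Several lists hold few tested genes, and 1 or 2 calls in such a list are not read as a result about it. In the TPM matrix 8 were called higher and 13 lower, and the median of all genes was then 0.12 higher than in CPM. Mast cell chymases and tryptases, which degrade matrix and activate peptides, were called lower in all 5 tested members, of which Tpsg1 passed the filter through Ctrl alone (0.556 and 0.758 to 0.115 and 0.0794 CPM) and lost its call in 6 of 13 alternatives. The most abundant included Mcpt4 (139 and 162 to 18.9 and 13.9 CPM, -3.14 ± 0.16, limma adjusted p = 0.0044) and Tpsb2 (159 and 181 to 20.1 and 13.7 CPM, -3.28 ± 0.19, adjusted p = 0.0057). The list of classical and lectin complement genes had 4 of 7 called lower, while the lectin protease Masp1, which passed the filter through WC1 alone, was higher without overlap and not called (0.468 and 0.448 to 0.836 and 1.32 CPM, 0.50 ± 0.16, adjusted p = 0.093, and 0.67 and 0.024 when WC1 1 was left out). The 4 included C1ra (207 and 196 to 139 and 139 CPM, -0.53 ± 0.07, adjusted p = 0.018) and C1s1 (481 and 468 to 361 and 348 CPM, -0.42 ± 0.08, adjusted p = 0.032), the targets of Serping1 named for that reason, and C1qa (874 and 853 to 547 and 421 CPM, -0.85 ± 0.15, adjusted p = 0.028). Cysteine cathepsins, the lysosomal proteases, were called lower in 4 of 10, with Ctsc at -0.46 ± 0.07 (adjusted p = 0.024) and Ctsh at -0.56 ± 0.11 (adjusted p = 0.036). Ctsh and C1s1 each lost their call in 4 of 14 alternatives, among them the TPM matrix and no filter.

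Counts in the remaining lists are read beside the same shares, 10.2% of all tested genes called higher and 7.71% lower. Among the plasminogen activation genes 1 of 9 was called lower, the urokinase receptor Plaur (108 and 104 to 55 and 40.9 CPM, -1.14 ± 0.15, limma adjusted p = 0.018). The other gene of this list with a small p, S100a10, a plasminogen receptor, had an adjusted p of 0.08 (-0.38 ± 0.12). DESeq2 called it lower (-0.36, adjusted p = 0.019), and its fold change was -0.24 when WC1 2 was left out and -0.52, with a call, when WC1 1 was (adjusted p = 0.0036). In the thrombin and contact list 2 of 8 were lower, the protein C receptor Procr (84.7 and 71.3 to 17.7 and 16.1 CPM, -2.14 ± 0.11, adjusted p = 0.0044) and protein S, Pros1 (200 and 200 to 152 and 133 CPM, -0.49 ± 0.09, adjusted p = 0.029).

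Granzymes and perforin had 1 of 4 tested genes called lower, Gzmb, while Gzma was at 0.6 and 0.701 CPM in Ctrl and 1.03 and 1.13 CPM in WC1 (0.33 ± 0.13, limma adjusted p = 0.13). Gzma was called higher in the TPM matrix (0.57, adjusted p = 0.045), and its fold change lay between 0.22 and 0.75 over the alternatives run. Of the neutrophil serine proteases 2 were tested and not called, with Ctsg, which passed the filter through Ctrl alone, at -0.86 ± 0.35 and Prtn3 at 0.15 ± 0.15 (limma adjusted p = 0.15 and 0.52). DESeq2 called Ctsg lower (-2.61, adjusted p = 0.022), and its fold change was -1.34 without Ctrl 1 and -0.37 without Ctrl 2. The collagen list had 1 of 11 called in each direction, Col5a3 higher (621 and 679 to 887 and 1031 CPM, 0.56 ± 0.13, adjusted p = 0.043) and the prolyl hydroxylase P4ha1 lower (112 and 122 to 85.4 and 85.2 CPM, -0.45 ± 0.07, adjusted p = 0.024), whereas Col1a1, a main client of Serpinh1, overlapped between groups (1146 and 1089, 1378 and 1022 CPM). P4ha1 lost its call in the TPM matrix, and Col5a3 lost its call with no filter. Protease inhibitors outside the serpins had 1 of 14 in each direction, the inter-alpha-trypsin inhibitor chain Itih5 higher (306 and 322 to 483 and 494 CPM, 0.64 ± 0.08, adjusted p = 0.017) and the cystatin Cst7, an inhibitor of cathepsins, lower (1.74 and 1.41 to 0.377 and 0.461 CPM, -0.86 ± 0.14, adjusted p = 0.024). Cst7 passed the filter through Ctrl alone, and its fold change lay between -1.89 and -0.56 over the alternatives run.

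Markers of several cell types differed between the groups as well. Their calls are read beside 10.2% of all tested genes called higher and 7.71% lower. Mast cell markers summed to 568 and 633 CPM in Ctrl and 86.1 and 69.1 CPM in WC1, with 7 of 8 called lower and Kit, which other cells also express, not called. Macrophage markers summed to 11112 and 10110 CPM in Ctrl and 6441 and 4590 CPM in WC1, with 6 of 10 called lower. Lyz2 alone held 6190 and 5352 CPM of this sum in Ctrl and 2875 and 2048 CPM in WC1. From the highest to the lowest library, the macrophage sum had the order Ctrl 1, Ctrl 2, WC1 1, WC1 2, which was also the order of Serpinb9b. For Serpinb9b, Ctrl above WC1 is given by the choice of the family, so only the order within each group is free. Another 12 serpins were lower in WC1 without overlap, which already sets Ctrl above WC1. Of these, 6 had the order of the macrophage sum (Serpinb6a, Serpinb6b, Serpinb1a, Serpinb1b, Serpinb1c and Serpinb12) and 6 did not (Serpinb9, Serping1, Serpinb8, Serpinb6c, Serpinf2 and Serpina3g). Adipocyte markers summed to 11082 and 12573 CPM in Ctrl and 20223 and 25816 CPM in WC1 (8 of 10 called higher) and endothelial markers to 389 and 446 CPM and 883 and 1147 CPM (6 of 7 called higher), both in the reverse order. Of the 6 serpins higher without overlap, Serpina3b, Serpina3c, Serpina3n, Serpinh1 and Serpinf1 had that order and Serpina3m did not. The share of all tested genes with either order was not counted, so these orders are not read as a result about the serpins. Fibroblast markers summed to 9351 and 9046 CPM in Ctrl and 8211 and 6386 CPM in WC1, with 3 of 8 called lower and the same order of libraries as the macrophage sum, and dendritic cell markers to between 18.5 and 24.5 CPM, with 1 of 6 higher and 2 lower. T and NK cell markers (10.4 to 16.6 CPM in sum) and mesothelial markers (64.1 to 170 CPM) overlapped between groups. The neutrophil markers did not share a direction. Only S100a8 and Csf3r passed the filter. S100a8 was called higher (6.93 and 4.7 CPM in Ctrl, 12.4 and 18.7 CPM in WC1, 1.27 ± 0.25, limma adjusted p = 0.034), and Csf3r was lower without overlap and not called (12.4 and 14.3 CPM, 11.2 and 11.1 CPM, -0.24 ± 0.11, adjusted p = 0.16). S100a9 (0.658 and 0.356 CPM in Ctrl, 0.0983 and 0.159 CPM in WC1), Cxcr2 (0.351 and 0.253 CPM, 0.147 and 0.0635 CPM) and Retnlg (0.205 and 0.0804 CPM, 0 in both WC1 libraries), all under the filter, were lower in WC1 without overlap, and Ngp was at 0 in every library. The part of these cell types in the serpin values was not tested.

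**Figure D5:**
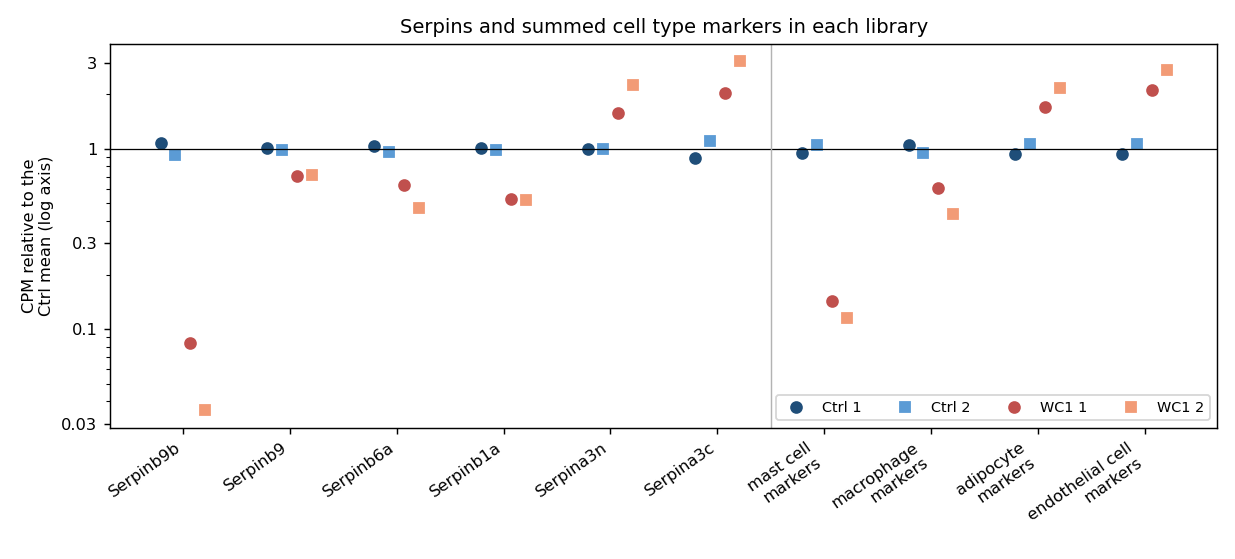
CPM of 6 serpins and of the summed markers of 4 cell types in each library, divided by the mean of the Ctrl libraries (log axis, each library a point, no error bars). WC1 points of Serpinb9b and of the mast cell sum (86.1 and 69.1 CPM compared to 568 and 633) are the lowest, those of Serpinb6a, Serpinb1a and Serpinb9 lie below 1 with the macrophage sum, and those of Serpina3n and Serpina3c lie above 1 with the adipocyte and endothelial sums. Within Ctrl, the mast cell sum is higher in Ctrl 2, whereas Serpinb9b is higher in Ctrl 1 (326 compared to 281 CPM). The fibroblast sum, with the library order of the macrophage sum, is not shown.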

How the data were processed

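Poly(A) RNA of epididymal adipose tissue was sequenced from directional libraries, 2 per group. Groups were taken from the sample titles. Per the labels, fastp, HISAT2, StringTie and mm10 are named in the submitters' processing notes, without versions or roles; for the annotation and the use of strand the sources used here give nothing. The authors deposited a CPM matrix, treated as a signal because its columns sum to between 97.6% and 105% of plain CPM, in which 100% of values were whole reads to within 0.01 read, and a TPM matrix, which the authors deposited with values corrected for transcript length. No per-sample column was left unused.

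The 14106 of 24421 genes that reached 0.5 CPM in 2 or more libraries were fitted as log2(CPM + 1) with limma 3.58.1 in R 4.3.3 (abundance trend). Two-sided p-values were adjusted over all 14106 by the Benjamini-Hochberg method, with a threshold of 0.05. The study likewise left out genes under 0.5 CPM. Values are means or single libraries, and errors of means are SD. Alternatives were pseudocounts of 0.25 and 2, no filter, a mean of at least 1 CPM, plain CPM, median-of-ratios scaling, the TPM matrix, edgeR 4.0.16 and DESeq2 1.42.0 on recovered reads, each library left out, and the replicate number as a block. Scripts were tested on simulated data. Depth was 61465029 to 90965297 reads per library, so the spread between 2 libraries, not the reads, limits precision for all but the lowest genes. The floor of 3 reads covers counting error only.

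All 62 serpins matched GENCODE M21 (GRCm38) and 52 the RefSeq promoter table. Tested serpins are named, except 1 that is not reported here, those under the filter by name and range, and the 2 genes of each partner list with the smallest p, with direct targets added. Tpsg1, Masp1 and single marker genes were named after their values were seen. Members and lists were chosen with earlier results of these data known.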

Additional observations from a re-analysis of the deposited data

How the results depend on the processing

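The counts of called genes varied with the library left out, the filter, the matrix and the tool. Leaving out each library in turn gave between 0 and 5 serpins called higher and between 0 and 9 lower, and between 0 and 8 partner genes higher and between 0 and 37 lower. The limma counts of 0 came without Ctrl 1 and without Ctrl 2, where partner genes at an unadjusted p under 0.05 were 1 higher and 18 lower, and 1 and 20. The spread then comes from the WC1 pair alone, and Mcpt4, for example, was at -3.25 and -3.03, compared to -3.14 with all libraries. With no filter limma called 0 serpins higher (4 at an unadjusted p under 0.05), with 4 lower, and 1 partner gene higher. More low genes were then tested, and of all 18132 genes 788 were called higher and 532 lower. In the TPM matrix 8 partner genes were called higher, and the share of higher genes among all called genes was 77.9%, compared to 57% in CPM and 67.2% in plain CPM. DESeq2 called 5 serpins and 6 partner genes higher and 30 partner genes lower, beside 2125 genes higher and 1736 lower over all genes. For the replicate block, the numbers 1 and 2 are not said to pair the libraries. The differences between replicate 1 and 2 correlated with r = 0.19 between groups. The block fit called 4 serpins higher and 8 lower, and 3 and 21 partner genes. Over all genes it called 1769 higher and 1497 lower, compared to 1443 and 1088 without the block. The cause of these changes was not tested.

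Of the called serpins, Serpinb1a, Serpinb1b and Serpinb9 kept their call in 12 of 14 alternatives, Serpinb6a, Serpinb6b, Serpina3n and Serpina3c in 11 and Serping1 in 8, and in all of these each kept its direction. Over 29 serpins, 345 of 399 alternative values kept direction and side of the threshold, 24 lost and 18 gained a call, and 12 turned sign. The sign turned for the 7 genes that follow, none of them called. Serpine2 was at 0.0055 in plain CPM and 0.07 in TPM. Over the fits that leave out a library, Serpine2 ranged from -0.17 to 0.034, Serpina1a from -0.075 to 0.28, Serpina1b from -0.24 to 0.41, Serpina3f from -0.042 to 0.26, Serpina3h from -0.19 to 0.26, Serpina3k from -0.95 to 0.25 and Serpini1 from -0.23 to 0.52. Of 302 values for 22 named partner genes, 253 kept direction and side, 43 lost and 5 gained a call, and 1 turned sign, Col1a1, which ranged from -0.13 without WC1 1 to 0.30 without WC1 2. With 2 libraries per group, a difference within the spread of the libraries was not detectable, and the age at which HFD began differs between the groups and cannot be told apart from the diet history.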
